A study of Mus musculus with 10 samples.

Results

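Mouse chromosome 4 was examined as 2 blocks of unlike base composition. The chromosome was taken as every 10 kb window of the deposited count table that carries its name, which gave 15651 of the 272566 windows in the table. The first block held the 11600 windows that start below position 116000001 of the mm10 genome. The second block held the 4051 windows from there to the end at 156508116. It is gene-dense and matches part of the short arm of human chromosome 1. The chromosome and the boundary were chosen by the values themselves, because the change between p0 and the later passages had been seen along it, so the contrast between the blocks is given as a description and without a test. For most values the windows were summed into 1 Mb bins. Of 157 bins on the chromosome 153 had enough reads to be used, 112 of 116 in the first block and 41 of 41 in the second, and each bin is called below by the megabase at which it starts, so that the 113 Mb bin runs from 113000001 to 114000000. Of the 4 bins left out, the first 3 hold the unsequenced centromeric end and the 60 Mb bin holds part of the major urinary protein genes.

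The libraries were low-coverage genomic DNA sequencing of male C57Bl/6 mouse embryonic stem cells grown in 2i medium, and the study asked whether 2 ways of keeping such cells lead to loss or gain of genomic regions. The 5 groups were p0, the cells at the start; p10 Mulas2019 and p20 Mulas2019, after 10 and 20 passages in the established protocol, with passaging every other day on gelatin; and p10 Keniry2022 and p20 Keniry2022, after 10 and 20 passages in the modified protocol, with daily passaging in suspension at higher density. Each group had 2 libraries, 1 from each of 2 independent lines that were divided between the protocols at p0, so p10 Mulas2019 and p20 Keniry2022 had spent the same number of days in culture. All groups share the genotype and the medium, and no wild-type or untreated cells other than p0 were analysed here.

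The libraries held between 27270648 and 35354358 reads, and a median 1 Mb bin of chromosome 4 held more than 10000 reads in each of them, so counting alone gave an error of at most 0.976% for such a bin. Y chromosome reads separated the lines in 4 of the 5 groups, with replicate 1 near 0 and replicate 2 between 0.0377% and 0.0594% of the reads. In p20 Keniry2022 the order was opposite, with 0.0441% in the library labelled replicate 1 and 0.000673% in the library labelled replicate 2. As 1 line lost its Y chromosome before p0, these 2 libraries go by their Y reads with the p0 library of the other number. Their replicate numbers may therefore be crossed. Each later library was set against the p0 library of its own replicate number, also where this is in doubt. For these 2 libraries the block medians and the block difference are also given with the numbers crossed. So are the correlation with GC content in the second block and a count of called bins. Their other values follow the labels only.

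Mammalian chromosomes are mosaics of long stretches, called isochores, that are either rich in A and T or rich in G and C. GC-rich stretches carry most genes and many short interspersed repeats and are copied early in S phase, whereas AT-rich stretches hold few genes, many long interspersed repeats and are usually copied late. In sequencing of whole genomes the number of reads per window depends on copy number and also on base composition, repeat content and the cell cycle of the culture, and counts by themselves do not separate these.

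Chromosome 4 shows this mosaic clearly. In the first block 40.6% of the sequenced bases were G or C, in the second block 47.2%, and over all autosomes 41.9%. The second block is 25.9% of the chromosome by length, yet it held 674 of its 1327 protein-coding genes, or 16.6 per Mb against 5.63 per Mb in the first block. CpG dinucleotides, the sites of DNA methylation in mammals, were found 12.8 times per kb in the second block and 7.34 times per kb in the first. Repeats masked in the reference took up 36.1% of the first block and 29.7% of the second. Of the 112 bins of the first block 14 held the start of no protein-coding gene, and every bin of the second block held at least 1. The ranges met in the middle, since the bins of the first block ran from 36.3% to 48.3% GC and those of the second block from 40.4% to 51.8%.

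The following 4 stretches of 240 bases, read from the plus strand of the GRCm38 (mm10) reference, show what the blocks are made of. They lie in the bins whose read count rose most and fell most at p10 Mulas2019 in each block, in the 10 kb window nearest to its bin in GC content, and none touches an annotated exon. Capitals mark CpG dinucleotides.
113 Mb bin, first block, chr4:113771441-113771680, intron of Skint5: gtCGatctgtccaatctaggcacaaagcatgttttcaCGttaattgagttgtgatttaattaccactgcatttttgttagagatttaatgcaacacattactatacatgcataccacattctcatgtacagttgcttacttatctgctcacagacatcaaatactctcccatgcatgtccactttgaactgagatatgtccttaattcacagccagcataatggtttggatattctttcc
46 Mb bin, first block, chr4:46491681-46491920, intron of Nans: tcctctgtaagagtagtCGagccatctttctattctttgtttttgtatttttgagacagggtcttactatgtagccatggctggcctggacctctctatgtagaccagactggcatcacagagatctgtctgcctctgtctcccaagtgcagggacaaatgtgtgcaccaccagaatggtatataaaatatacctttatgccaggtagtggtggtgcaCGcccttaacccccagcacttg
146 Mb bin, second block, chr4:146917201-146917440, within the noncoding gene Gm26573: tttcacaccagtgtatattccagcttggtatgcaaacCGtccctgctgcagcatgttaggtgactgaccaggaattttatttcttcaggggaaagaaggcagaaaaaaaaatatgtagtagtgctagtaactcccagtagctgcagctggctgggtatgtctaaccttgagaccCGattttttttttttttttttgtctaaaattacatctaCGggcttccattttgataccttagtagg
140 Mb bin, second block, chr4:140082641-140082880, intron of Igsf21: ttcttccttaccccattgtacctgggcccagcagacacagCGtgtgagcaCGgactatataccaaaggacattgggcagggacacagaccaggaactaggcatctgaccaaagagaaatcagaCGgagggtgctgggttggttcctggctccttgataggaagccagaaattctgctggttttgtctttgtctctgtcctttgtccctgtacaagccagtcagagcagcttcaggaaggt

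These stretches were 37.1%, 47.1%, 40.4% and 51.7% GC. The window around the Skint5 stretch (chr4:113770001-113780000) held 53 and 67 reads in the p0 libraries and 91 and 150 in the p10 Mulas2019 libraries (RPM, reads per 10 kb window scaled by the library total, of 1.74 and 2.19 at p0 against 3.34 and 4.24 at p10). The window around the Igsf21 stretch (chr4:140080001-140090000) went the other way, from 187 and 183 reads at p0 to 118 and 135 at p10 Mulas2019, or from 6.13 and 5.97 to 4.33 and 3.82 RPM. The window around the Nans stretch (chr4:46490001-46500000), a GC-rich part of the AT-rich block, held 6.32 and 6.10 RPM at p0 and 4.77 and 4.75 at p10 Mulas2019. The window around the Gm26573 stretch (chr4:146910001-146920000), an AT-rich part of the GC-rich block, held 2.92 and 3.10 RPM at p0 and 3.23 and 3.76 at p10 Mulas2019. These windows come from bins picked for how far they moved and are shown to illustrate those bins. Counting error alone gave a single window a median SD between 0.15 and 0.20 on the log2 scale, and the difference at Gm26573 in replicate 1 was no larger than that.

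The reads of chromosome 4 shifted from the GC-rich block to the AT-rich block at p10 Mulas2019 and stood nearer to the p0 division in the other groups. At p0 the second block took 34.7% of the chromosome 4 reads in replicate 1 (95% Wilson interval 34.7% to 34.8%) and 34.1% in replicate 2 (34.0% to 34.2%). At p10 Mulas2019 its share was 28.4% and 28.3%. At p20 Mulas2019 it was 31.9% and 31.4%. At p10 Keniry2022 it was 32.8% and 31.6%. In the libraries labelled p20 Keniry2022 it was 33.7% and 33.6%. All 8 later libraries lay below both p0 libraries, and the p10 Mulas2019 libraries lay lowest. The shares of p20 Mulas2019 and p10 Keniry2022 overlapped. Such intervals cover counting error only, and the 2 p0 libraries differed by more than theirs.

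**Figure D1:**
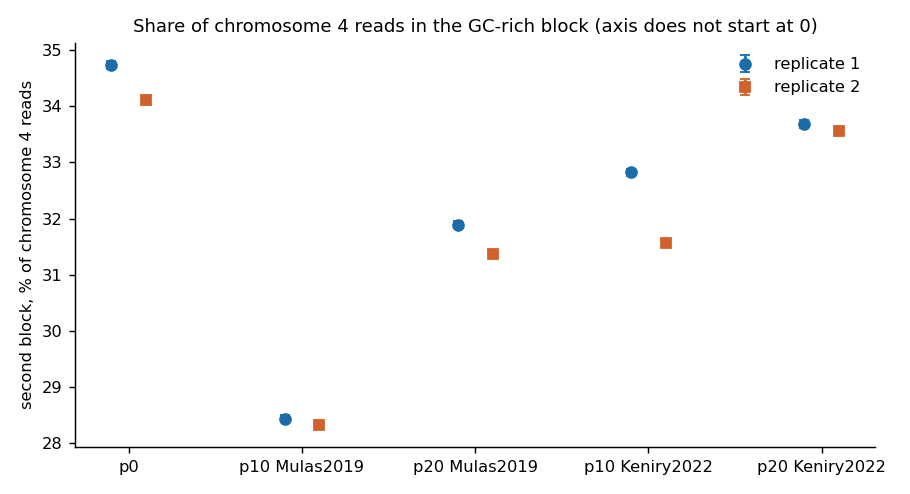
Share of chromosome 4 reads that fell in the second, GC-rich block (y axis, percent, not starting at 0) for the 2 libraries of each group (circles, replicate 1; squares, replicate 2), with 95% Wilson intervals that are mostly smaller than the symbols. The p10 Mulas2019 libraries sit at 28.4% and 28.3%, below every other library.

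The chromosome as a whole kept its share of the genome more closely than its blocks did. It took 6.14% and 6.12% of all reads at p0, 6.05% and 6.03% at p10 Mulas2019, 6.06% and 5.99% at p20 Mulas2019, 6.10% and 6.06% at p10 Keniry2022, and 6.07% and 6.09% at p20 Keniry2022. The first block took 4.01% and 4.03% of all reads at p0 and 4.33% and 4.32% at p10 Mulas2019, while the second took 2.13% and 2.09% at p0 and 1.72% and 1.71% at p10 Mulas2019. The gain of the first block thus came to most of what the second block lost.

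The level of the blocks, before any comparison with p0, shows the same order. A median bin of the second block held 1.65 and 1.62 times as many reads as a median bin of the first block at p0. At p10 Mulas2019 this ratio was 1.17 in both libraries. It was 1.42 and 1.37 at p20 Mulas2019, 1.502 and 1.403 at p10 Keniry2022, and 1.56 and 1.57 at p20 Keniry2022. GC-rich bins therefore held more reads than AT-rich bins in every library, and p10 Mulas2019 was the group in which the blocks were nearest to even. Over the 153 bins the level rose by 0.10 on the log2 scale for each added percent of GC in both p0 libraries and by 0.03 in both p10 Mulas2019 libraries.

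Set against the p0 library of the same number, the median bin of the second block lay below 0 in all 8 libraries and that of the first block above 0, by amounts that differed between groups. At p10 Mulas2019 the median log2 ratio of the second block was -0.33 in replicate 1 and -0.32 in replicate 2, which is 0.793 and 0.799 of the p0 level, and that of the first block was 0.15 and 0.13, or 1.11 and 1.09 times the p0 level. At p20 Mulas2019 the medians were -0.15 and -0.16 in the second block and 0.07 and 0.06 in the first. At p10 Keniry2022 they were -0.09 and -0.13 in the second block and 0.05 in the first in both libraries. In the libraries labelled p20 Keniry2022 they were -0.06 and -0.03 in the second block and 0.01 and 0.00 in the first. With the p20 Keniry2022 numbers crossed, the second block stood at -0.03 and -0.06 and the first at -0.00 and 0.02, so the first block then lay just below 0 in replicate 1.

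The difference between the blocks, second minus first, was -0.47 ± 0.02 (SD, n = 2) at p10 Mulas2019, -0.21 ± 0.002 at p20 Mulas2019, -0.16 ± 0.04 at p10 Keniry2022 and -0.05 ± 0.03 at p20 Keniry2022, each with 2 libraries. A single lost copy in every cell of a diploid culture would give a log2 ratio of -1. Loss in a share of the cells would give a smaller change, and copy number was not tested here. The comparisons share their p0 libraries and are not independent of each other. Among groups, both p10 Mulas2019 libraries (-0.49 and -0.45) lay beyond all others, the p20 Mulas2019 libraries (-0.22 and -0.21) lay next, and the p10 Keniry2022 libraries (-0.14 and -0.19) lay above them. The values of these last 2 groups did not overlap, but they were separated by less than the spread within p10 Keniry2022. The p20 Keniry2022 libraries (-0.07 and -0.03) were nearest to 0, also with their numbers crossed (-0.03 and -0.08). At matched time in culture, p10 Mulas2019 and p20 Keniry2022 therefore lay at the 2 ends of the range.

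**Figure D2:**
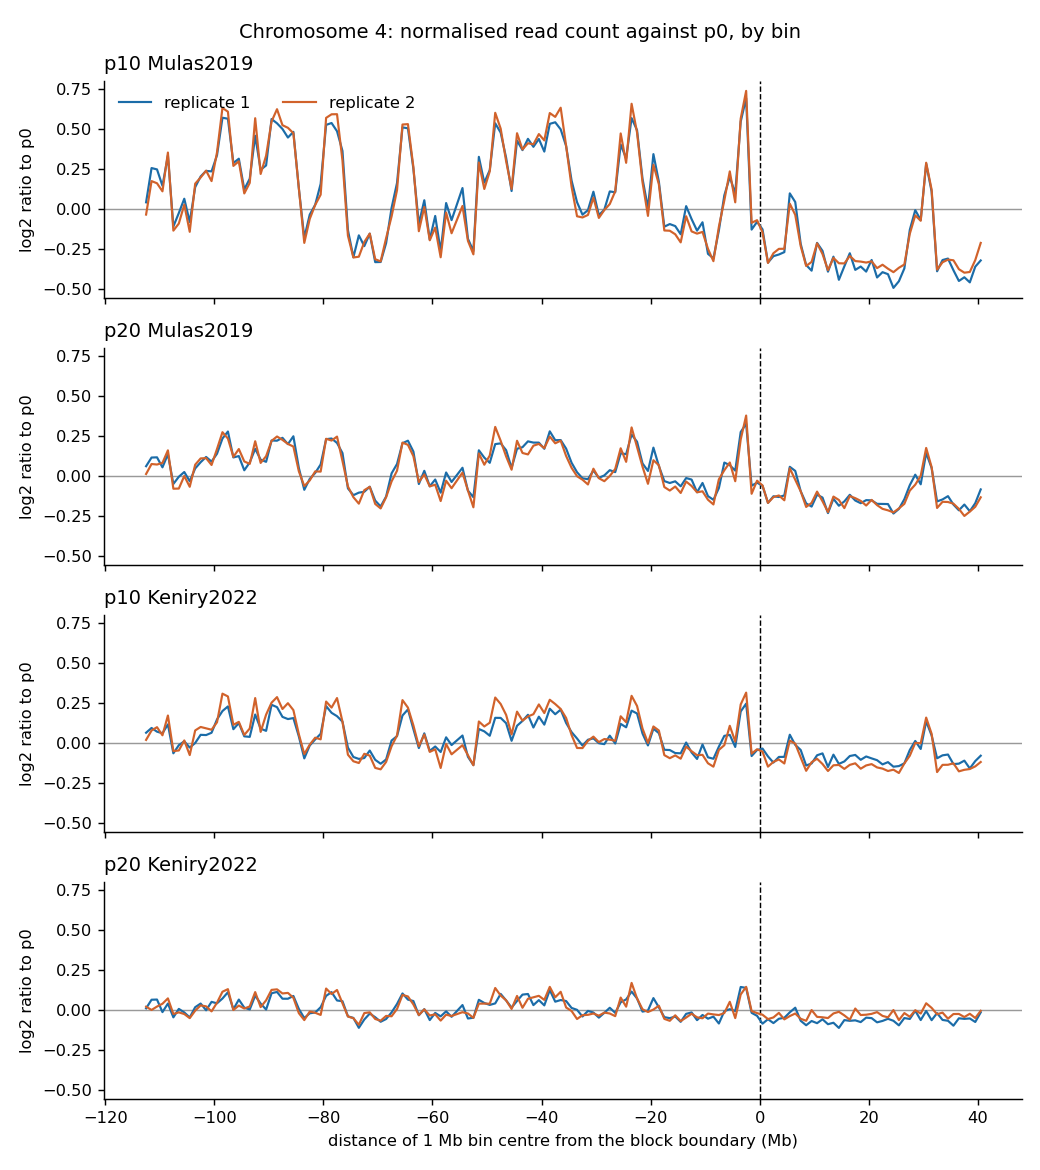
Log2 ratio of each library to its p0 library (y axis) in the 153 bins of 1 Mb along chromosome 4, placed by the distance of the bin centre from the block boundary in Mb (x axis, dashed line at 0), with 1 panel per group and 1 line per replicate. At p10 Mulas2019 the bins range from -0.49 to 0.74, the 2 replicates run together, and most peaks and troughs recur at smaller height at p20 Mulas2019 and p10 Keniry2022, while the second block is nearly flat at p20 Keniry2022.

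The division was not a step at the boundary. The last bins of the first block, at 114 and 115 Mb, stood at -0.13 and -0.08 in p10 Mulas2019 replicate 1 and at -0.09 and -0.07 in replicate 2, with 43.7% and 43.3% GC. The first bins of the second block, at 116 and 117 Mb, stood at -0.13 and -0.33 in replicate 1 and at -0.14 and -0.34 in replicate 2, with 42.8% and 47.7% GC. The 113 Mb bin close by, with 37.0% GC, held the highest value of the whole chromosome at 0.69 and 0.74. The largest step in this stretch therefore lay between the 113 and 114 Mb bins, inside the first block, and a smaller one between the 116 and 117 Mb bins, inside the second. Within the first block 36 of 112 bins lay below 0 at p10 Mulas2019 in replicate 1 and 42 in replicate 2. Within the second block 4 of 41 bins lay above 0 in replicate 1 and 3 in replicate 2.

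The bins of each block that differed most from it in base composition also stood apart from it in their change. Of the 41 bins of the second block 7 were under 43% GC, a limit set after the values were seen, and lie at 116, 121, 122, 144, 145, 146 and 147 Mb. Their median log2 ratio at p10 Mulas2019 was 0.04 in replicate 1 and -0.04 in replicate 2, against -0.36 and -0.33 in the other 34 bins of the block. Of the 112 bins of the first block 9 held 45% GC or more, and they lie at 41, 42, 43, 45, 46, 57, 63 and 107 Mb and in the bin that ends where the 107 Mb bin starts. Their median was -0.28 and -0.30, none of the 9 was above 0 in any of the 8 later libraries, and the other 103 bins had medians of 0.18 and 0.16. Of these 103 bins 76 and 70 lay above 0, so bins below 0 were also found outside the GC-rich set. These GC-rich bins of the first block were also rich in genes, with 18.6 protein-coding genes per bin against 4.63 in the rest of the block. The AT-rich bins of the second block still held 13.1 genes per bin. The 116 Mb bin, with 28 genes, was the richest of these, and it stood at -0.13 and -0.14.

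In most bands of like GC content the blocks lay close together. Between 40% and 42% GC, 26 bins of the first block had a median log2 ratio of 0.09 and 0.03 at p10 Mulas2019, 4 bins of the second block had 0.10 and 0.08, and 436 bins of the other 18 autosomes had 0.06 and 0.03. Between 44% and 46% GC, 7 bins of the first block had -0.18 and -0.20 and 3 bins of the second block had -0.22 and -0.23, a gap larger than that between replicates, with median GC contents of 44.9% and 45.2%. Between 46% and 48% GC, 6 bins of the first block had -0.29 and -0.30, 11 bins of the second block had -0.31 and -0.30, and 188 bins of the other autosomes had -0.29 and -0.28. The most AT-rich bins, from 36% to 38% GC, occurred in the first block only, where 25 bins had 0.51 and 0.57, beside 0.49 and 0.55 in 331 bins of the other autosomes. The most GC-rich bins, from 48% to 52%, stood at -0.39 and -0.35 in 19 bins of the second block, beside -0.39 and -0.34 in 114 bins of the other autosomes. The single bin of the first block in this band, at 107 Mb with 48.3% GC, stood at -0.31 and -0.33. Apart from that bin, the medians of chromosome 4 given here lay within 0.05 of those of the other autosomes.

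**Figure D3:**
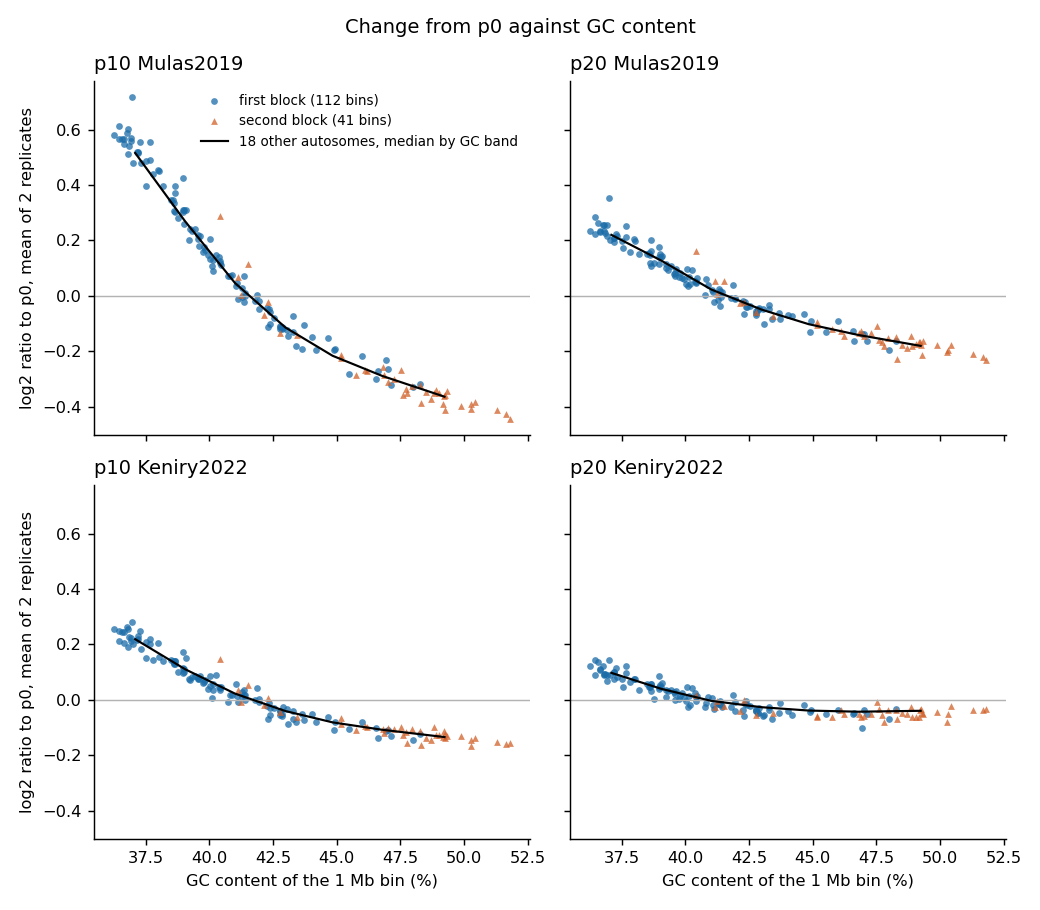
Mean log2 ratio to p0 of the 2 replicates (y axis) against the GC content of the bin in percent (x axis) for each group, with circles for the 112 bins of the first block, triangles for the 41 bins of the second, and a line through the medians of the other 18 autosomes in bands of GC content. Bins of both blocks lie along the line of the other autosomes, and the line is steepest below 42% GC and flattest at p20 Keniry2022.

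The relation to GC content held inside each block. Across the 112 bins of the first block Pearson's r between GC content and the log2 ratio was -0.97 and -0.95 at p10 Mulas2019, and across the 41 bins of the second block it was -0.95 and -0.91. It ran from -0.94 to -0.96 in the first block and from -0.87 to -0.93 in the second at p20 Mulas2019 and p10 Keniry2022. In the libraries labelled p20 Keniry2022 it was -0.87 and -0.84 in the first block but -0.42 and -0.20 in the second, where crossing the numbers gave 0.30 and -0.74. Bins of one library share their depth and neighbours share sequence, so these are descriptions and carry no p-value. The line was steeper in the AT-rich block, with -0.087 and -0.094 log2 units for each percent of GC at p10 Mulas2019 against -0.055 and -0.045 in the GC-rich block. At p20 Keniry2022 the corresponding slopes were -0.017 and -0.018 in the first block and -0.004 and -0.002 in the second.

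The same relation was weaker between neighbouring 10 kb windows of one bin. Among windows with at least 30 reads in both libraries compared, the slope within bins was -0.060 and -0.055 log2 units for each percent of GC in the first block at p10 Mulas2019, or 0.691 and 0.585 of the slope between bins. In the second block it was -0.035 and -0.023, or 0.593 and 0.466 of the slope between bins. At p10 Keniry2022 the slope within bins was -0.015 and -0.024 in the first block and -0.008 and -0.010 in the second. For p20 Keniry2022 it was -0.009 and -0.007 in the first block and 0.003 and 0.004 in the second.

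The fit across all 2541 bins of the genome, limma's TREAT test for a change larger than 1.1-fold with the replicate number as a block and Benjamini-Hochberg adjustment, gave the following counts of bins on chromosome 4 against p0. At p10 Mulas2019 it called 97 of 153 bins, or 63.4%, beside 58.8% of all bins. Of these 51 were higher than p0 (33.1% of all bins were) and 46 were lower (25.7% of all bins). In the first block 50 bins were higher and 13 lower, and the 50 held 36.3% to 40.05% GC while the 13 held 43.4% to 48.3%. In the second block 33 were lower, all with at least 45.2% GC, and 1 was higher, the 146 Mb bin. At p20 Mulas2019 it called 14 bins, or 9.15%, beside 8.89% of all bins, with 13 higher (8.74% of all bins) and 1 lower (0.157% of all bins), the 128 Mb bin. At p10 Keniry2022 it called 8 bins, 5.23% beside 4.21% of all bins, all of them higher and in the first block. At p20 Keniry2022 it called 0 of 153 and 0% of all bins, with 0 on chromosome 4 and 20 of all 2541 bins at an unadjusted p under 0.05 from limma. As the bins were chosen on these values, nothing is read from the counts beyond their place beside the background. The share over all bins was counted only for this fit and after GC correction. Counts under the other settings therefore have no background beside them and are not read as a result about chromosome 4. The count of 14 fell to 0 without either p0 library and to 3 without p20 Mulas2019 replicate 2. The count of 8 fell to 0 without either p0 library or without p10 Keniry2022 replicate 2, and rose to 17 without p10 Keniry2022 replicate 1. The 8 also fell to 0 with voom, with centring on the autosomal median, with no filter on low bins, with no replicate block and with the p20 Keniry2022 numbers crossed in the block, and the 14 fell to 0 with voom and to 9 with centring or with no replicate block.

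The protocols were also compared directly at the same passage. At p10, 62 of 153 bins differed between Keniry2022 and Mulas2019, or 40.5% beside 29.3% of all bins, with 27 higher in Keniry2022 (8.03% of all bins) and 35 lower (21.3% of all bins). The second block gave 24 bins that were higher in Keniry2022 and none that was lower, and the first gave 3 that were higher and 35 that were lower. The median log2 difference, Keniry2022 minus Mulas2019, was 0.21 in the second block and -0.09 in the first, where it was -0.00 over all bins. Without p10 Keniry2022 replicate 1 the count was 30, of which 1 was higher. No share over all bins was counted for that fit. At p20 the median difference was 0.11 in the second block and -0.05 in the first, and 0 of 153 bins were called (0% of all bins). An unadjusted p under 0.05 from limma was found for 2 bins of chromosome 4 and 6 of all 2541 bins.

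The 2 highest and the 2 lowest bins of each block at p10 Mulas2019 were looked at gene by gene. They are extremes within their block only, since bins of the second block such as those at 153 Mb (mean -0.41, 4 genes) and 128 Mb (mean -0.39, 9 genes) lay lower than the lowest of the first. In the first block the 113 Mb bin, with Skint5 and Skint6, stood at 0.69 and 0.74 at p10 Mulas2019, 0.33 and 0.38 at p20 Mulas2019, 0.25 and 0.32 at p10 Keniry2022, and 0.14 and 0.15 at p20 Keniry2022. Skint genes encode immunoglobulin-like proteins of skin and thymic epithelium that take part in the selection of epidermal T cells. This bin was above p0 in all 8 libraries, and the rise was spread along it, since 98 and 95 of its 100 windows were higher at p10 Mulas2019. The 92 Mb bin, with only Izumo3, the gene of a sperm membrane protein, and Gm12666, stood at 0.57 and 0.66 at p10 Mulas2019 and at 0.12 and 0.17 at p20 Keniry2022.

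The lowest bins of the first block lie at 46 and 45 Mb. The 46 Mb bin, which holds Xpa, a factor of nucleotide excision repair, and the sialic acid synthase gene Nans among 13 protein-coding genes, stood at -0.33 in both p10 Mulas2019 libraries, -0.19 and -0.20 at p20 Mulas2019, -0.13 and -0.16 at p10 Keniry2022, and -0.07 in both p20 Keniry2022 libraries. The 45 Mb bin, which holds Exosc3, a subunit of the RNA exosome, and Polr1e, a subunit of RNA polymerase I, stood at -0.33 and -0.31 at p10 Mulas2019 and at -0.04 and -0.05 at p20 Keniry2022. Both bins were below p0 in all 8 libraries.

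In the second block the highest bins were those at 146 and 147 Mb, where KRAB zinc finger genes lie in tandem. Proteins of this class bind DNA and mostly silence transposable elements, and Fv1, a restriction factor that derives from a retroviral gag gene, lies beside them in the 147 Mb bin. The 146 Mb bin stood at 0.28 and 0.29 at p10 Mulas2019, 0.15 and 0.18 at p20 Mulas2019, 0.14 and 0.16 at p10 Keniry2022, and -0.01 and 0.04 at p20 Keniry2022. It held few reads, 3291 and 3283 at p0, and 33 of its 100 windows had none in any library. The 147 Mb bin stood at 0.11 and 0.12 at p10 Mulas2019 and at -0.06 and 0.01 at p20 Keniry2022. Of the windows with reads in both libraries, 43 of 58 were higher at 146 Mb and 53 of 95 at 147 Mb in p10 Mulas2019 replicate 1, so the rise was less even than in the Skint bin.

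The lowest bins of the second block lie at 140 and 154 Mb and are the most GC-rich of the chromosome, with 51.8% and 51.7% GC. The 140 Mb bin holds 5 Padi genes, whose enzymes turn arginine into citrulline in proteins, together with Sdhb, a subunit of succinate dehydrogenase. It stood at -0.49 and -0.39 at p10 Mulas2019, -0.23 in both p20 Mulas2019 libraries, -0.15 and -0.17 at p10 Keniry2022, and -0.07 and 0.00 at p20 Keniry2022, and 99 and 100 of its 100 windows were lower at p10 Mulas2019. The 154 Mb bin, with Trp73, a relative of the tumour suppressor p53, and Prdm16, a regulator of brown fat and blood stem cells, stood at -0.46 and -0.39 at p10 Mulas2019 and at -0.05 and -0.02 at p20 Keniry2022.

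Chromosome 4 carries several genes of pluripotency and growth control, and their bins lay on either side of 0. Lin28a, an RNA-binding protein of pluripotent cells (chr4:134003330-134018841, minus strand), lies in a bin of 49.3% GC that stood at -0.36 and -0.33 at p10 Mulas2019, -0.17 and -0.15 at p20 Mulas2019, -0.10 and -0.16 at p10 Keniry2022, and -0.07 and -0.03 at p20 Keniry2022. Klf4, a reprogramming factor (chr4:55527143-55532466, minus strand), lies in the first block in a bin of 43.7% GC that stood at -0.19 in both p10 Mulas2019 libraries and at -0.06 and -0.03 at p20 Keniry2022. Cdkn2a and Cdkn2b, the cell cycle inhibitors that are often deleted in tumours and in cultured cells (chr4:89274471-89294653 and chr4:89306299-89311039, both on the minus strand), share a bin of 40.1% GC that stood at 0.11 in both p10 Mulas2019 libraries, 0.03 and 0.05 at p20 Mulas2019, -0.00 and 0.02 at p10 Keniry2022, and -0.02 and -0.04 at p20 Keniry2022. The bin also holds 2 further gene starts, changes shorter than the bin were not sought, and deletion of these genes was not tested.

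In the second block 37 and 38 of the 41 bins lay below 0 at p10 Mulas2019, and most of its landmark genes lie in such bins. Arid1a, a subunit of the SWI/SNF remodelling complex, stood at -0.38 and -0.32, Runx3, a transcription factor, at -0.39 and -0.33, and Chd5, a chromodomain remodeller, at -0.45 and -0.38. Mtor, the growth-control kinase, Mad2l2, a subunit of translesion polymerase zeta, and Casz1, a zinc finger factor, share a bin at -0.39 and -0.38. E2f2, a transcription factor of the cell cycle, stood at -0.32 and -0.33, and Ski, a repressor of TGF-beta signalling, at -0.36 and -0.32. Mycl, a MYC family gene in an AT-rich bin of the second block with 41.3% GC, stood at 0.04 and -0.04, and Prdm2, with 43.4% GC, at -0.13 and -0.15. In the first block Jak1, a cytokine receptor kinase, stood at -0.16 and -0.21 with 43.4% GC, Tal1, a blood transcription factor, at -0.08 and -0.07 with 43.3%, and Jun, a subunit of AP-1, at 0.01 and -0.04 with 41.95%. At p20 Keniry2022 the bins of all 19 landmark genes lay between -0.07 and 0.02.

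**Figure D4:**
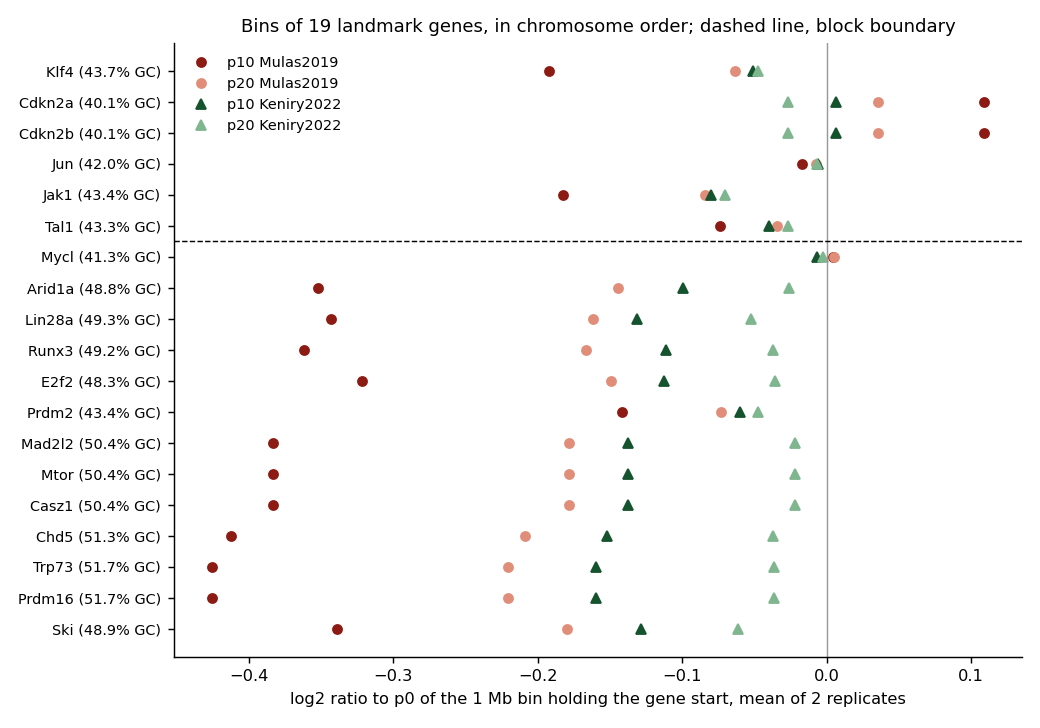
Mean log2 ratio to p0 (x axis) of the 1 Mb bin that holds the start of each of 19 landmark genes (y axis, in chromosome order, with the GC content of the bin), with 1 symbol per group and a dashed line at the block boundary. At p10 Mulas2019 the bins run from -0.43 for Trp73 and Prdm16 to 0.11 for Cdkn2a and Cdkn2b, and genes with the same value share a bin.

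The large gene families of the chromosome were counted over the windows they span. The 11 Skint genes (chr4:111919392-114245028, 37.5% GC) stood at 0.57 and 0.62 at p10 Mulas2019, 0.28 and 0.27 at p20 Mulas2019, 0.20 and 0.26 at p10 Keniry2022, and 0.12 and 0.11 at p20 Keniry2022. The 19 zinc finger genes (chr4:145510759-147848366, 40.3% GC) stood at 0.28 and 0.26 at p10 Mulas2019, 0.14 and 0.17 at p20 Mulas2019, 0.13 and 0.14 at p10 Keniry2022, and -0.04 and 0.03 at p20 Keniry2022. The 17 type I interferon genes (chr4:88522025-88880201, 42.5% GC), whose products are the first antiviral signals, stood at 0.14 and 0.06 at p10 Mulas2019, 0.11 and 0.03 at p20 Mulas2019, 0.06 and 0.08 at p10 Keniry2022, and 0.02 and 0.03 at p20 Keniry2022. These interferon values overlapped between the groups, and in replicate 2 the highest was that of p10 Keniry2022. The 22 Mup genes (chr4:59956804-62150863, 40.8% GC), which encode the major urinary proteins that carry pheromones, stood at 0.14 and 0.07 at p10 Mulas2019, 0.06 and 0.04 at p20 Mulas2019, 0.04 and 0.03 at p10 Keniry2022, and 0.02 and -0.01 at p20 Keniry2022, with 40 of 221 windows empty in all libraries. Counting alone gave an SD of 0.03 for these last families at p10 Mulas2019 and of 0.02 and 0.01 for the Skint genes.

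Olfactory receptor genes lie in 3 groups that differ in composition and moved apart. The 6 genes near 43 Mb (chr4:43694784-43857595, 45.9% GC) stood at -0.19 and -0.28 at p10 Mulas2019. The 4 genes near 52 Mb (chr4:52814604-52972474, 39.1% GC), also in the first block, stood at 0.20 and 0.26. The 13 genes near 118 Mb (chr4:118658952-118938612, 42.9% GC), in the second block, stood at -0.08 in both libraries. Counting alone gave these values an SD of 0.03 to 0.05.

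Removing the relation to GC content took away nearly all of the contrast. For this the log2 count of every library was corrected by a smooth curve on GC content fitted over the bins, and the block difference at p10 Mulas2019 went from -0.47 to -0.01. The first block then stood at 0.01 and -0.00 and the second at -0.00 and -0.01. At p20 Mulas2019 the block difference was 0.01, at p10 Keniry2022 0.01 and at p20 Keniry2022 0.00, each within 0.03 of 0 in both libraries. A curve fitted without any bin of chromosome 4 gave -0.01, 0.02, 0.01 and 0.00 in the same order. The SD of the log2 ratio over the 153 bins went from 0.31 and 0.32 to 0.04 in both libraries at p10 Mulas2019, and from 0.06 in both to 0.02 in both at p20 Keniry2022. After the correction limma's TREAT test called 0 of 153 bins in each of the 6 comparisons, where it called 2 bins of the genome at p10 Mulas2019 against p0 (0.0787% of all bins) and 0% in the other 5. An unadjusted p under 0.05 was found for 1 bin of chromosome 4 and 8 of all 2541 bins at p10 Mulas2019 against p0. In the other 5 comparisons it was found for 0 bins of chromosome 4, and for 7 of all bins at p20 Mulas2019 against p0, 3 between the protocols at p10 and 0 in the remaining ones.

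**Figure D5:**
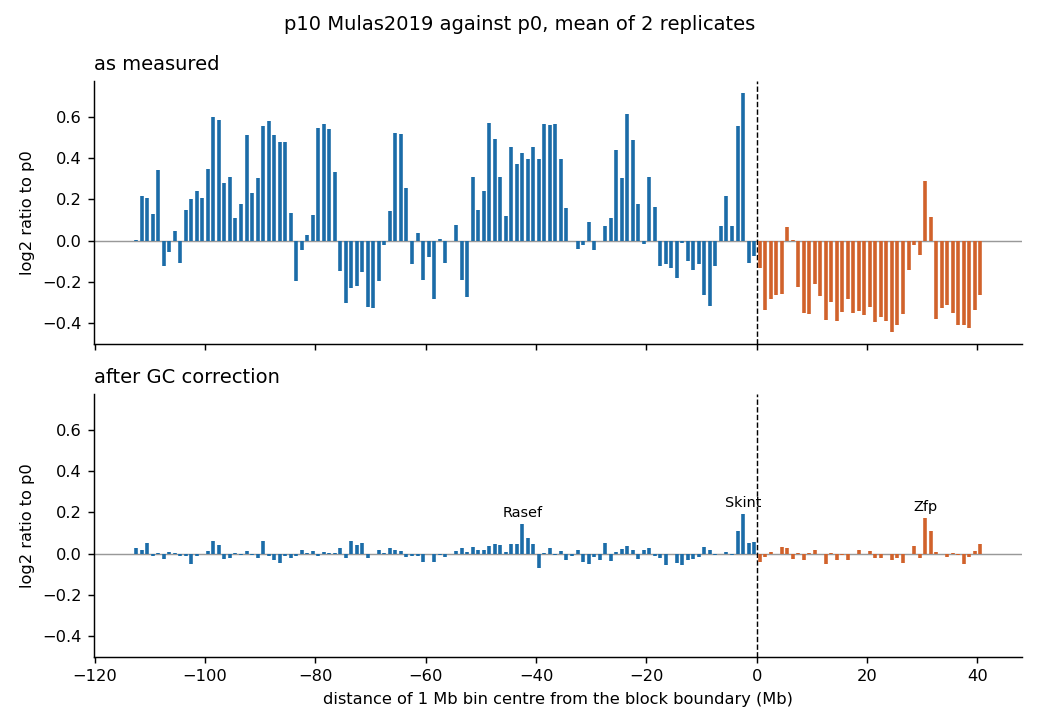
Mean log2 ratio of p10 Mulas2019 to p0 (y axis) in 153 bins against the distance of the bin centre from the block boundary in Mb (x axis), as measured (upper panel) and after correction for GC content (lower panel), in blue for the first block and orange for the second. After correction the bins with Skint genes (0.19), zinc finger genes (0.17) and Rasef (0.14) stand highest and the remaining contrast between the blocks is -0.01.

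After the correction 5 bins had a mean above 0.1 at p10 Mulas2019. The 113 Mb bin stood at 0.20 and 0.18 at p10 Mulas2019, 0.10 and 0.13 at p20 Mulas2019, 0.06 in both p10 Keniry2022 libraries, and 0.04 and 0.03 at p20 Keniry2022, so that all 8 libraries lay above 0. The neighbouring 112 Mb bin, which also belongs to the Skint genes, stood at 0.11 and 0.10 at p10 Mulas2019. The 146 Mb bin stood at 0.16 and 0.19 at p10 Mulas2019, 0.08 and 0.11 at p20 Mulas2019, 0.09 and 0.11 at p10 Keniry2022, and -0.03 and 0.04 at p20 Keniry2022. The 147 Mb bin beside it stood at 0.09 and 0.13 at p10 Mulas2019 and at -0.06 and 0.03 at p20 Keniry2022. The 73 Mb bin, which holds Rasef, a Rab GTPase gene, beside a run of predicted genes, stood at 0.15 and 0.13 at p10 Mulas2019, 0.08 and -0.01 at p20 Mulas2019, 0.08 and 0.04 at p10 Keniry2022, and 0.04 and 0.03 at p20 Keniry2022. None of these passed the test across all bins. The bins at 112, 113 and 73 Mb were 54.3%, 50.1% and 49.0% repeat-masked, above the 36.1% of their block, and those at 146 and 147 Mb were 37.1% and 39.3%, above the 29.7% of theirs. The other 5 bins of the chromosome that were more repeat-masked than the 73 Mb bin, those at 17, 21, 61, 121 and 122 Mb, had corrected means from -0.02 to 0.06 at p10 Mulas2019. Weighting the windows of a bin by their p0 reads moved its GC content from 37.7% to 37.8% at 112 Mb, from 37.0% to 37.3% at 113 Mb, from 40.4% to 40.3% at 146 Mb, from 41.5% to 42.5% at 147 Mb and from 39.0% to 38.4% at 73 Mb. Whether repeats take part in these values was not tested.

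The corrected values were shared between the lines less than the uncorrected ones. Over the 153 bins the r between replicates 1 and 2 was 0.99 at p10 Mulas2019, 0.97 at p20 Mulas2019, 0.97 at p10 Keniry2022 and 0.84 at p20 Keniry2022. After the correction it was 0.70, 0.43, 0.37 and 0.25. These too are descriptions over neighbouring bins that share their libraries.

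Beside the other autosomes, chromosome 4 ranked high in the spread of its composition and of its change. The SD of GC content over its bins was 4.15 percentage points, the second highest of 19 autosomes, whose median was 3.40. The SD of its log2 ratio at p10 Mulas2019 was also the second highest of 19 in both libraries, at 0.31 and 0.32 beside medians of 0.27 and 0.29. After the correction it was seventh in both libraries, at 0.04 beside medians of 0.04. The corrected median of chromosome 4 differed from that of all autosomes by between -0.004 and 0.008 in the 8 libraries. As the autosomes share libraries, these ranks are given without a test.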

How the data were processed

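Genomic DNA libraries of the 10 samples were sequenced as single-end reads by the authors, demultiplexed with bcl2fastq and aligned to mm10 with Bowtie2. The versions are not given in the sources used here. As deposited, the values are log2 counts per 10 kb window, scaled by the authors to the largest library, with windows without a read given 0.9 reads. Whole reads were recovered from 100% of these values (tolerance 0.1 reads) and 2 mitochondrial windows without reads were left out. No column of the table was left unused. Library totals ran from 27270648 to 35354358 reads.

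Reads were summed into 1 Mb bins, and bins below 0.1 of the median bin were left out, leaving 2541 of 2737. The list of ENCODE blacklisted regions, which the authors left out, was not used here, so those regions were kept. Log2 counts per library total, with 0.5 reads added, were set against the p0 library of the same replicate number. GC content came from GRCm38, whose ends matched all 21 chromosomes, and genes from GENCODE vM21. Tests across all bins used limma 3.58.1 with a trended prior on log2 CPM by library total, with TREAT at 1.1-fold, an adjusted p of 0.05 and the replicate as a random block (consensus correlation 0.132). The pairing comes from the study's design, in which each of the 2 lines was divided between the protocols. For GC correction a loess curve (span 0.3) was fitted in each library over autosomal bins. The fit was also run on simulated reads in which the change had no relation to GC content. That run therefore does not show how the fit behaves under the relation seen here. Descriptive values and intervals (95%) were computed with Python 3.11.15 and scipy.

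Members, blocks and gene lists were chosen with earlier results of these data known. The bins described by name are, in each block, the 2 with the highest and the 2 with the lowest change at p10 Mulas2019, the bins of 19 landmark genes whatever their values, and the gene families of the chromosome. The bins at 17, 21, 61, 73, 112, 128 and 153 Mb, the last and first bins at the boundary and those of unlike GC content were named after their values were seen. The alternatives were voom with trimmed mean factors, centring on the autosomal median, another filter, block, threshold, bin size and boundary, leaving out each library, and correction for GC content. Crossing the p20 Keniry2022 numbers in the fit across bins was chosen after seeing the data.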

Additional observations from a re-analysis of the deposited data

Results flagged for a closer look

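Between p10 Keniry2022 and p10 Mulas2019, which share their p0 cells, 62 of the 153 bins of chromosome 4 differed when tested directly with limma's TREAT test (29.3% of all bins did). The bins were chosen with these values known, and protocol and days in culture cannot be told apart between these groups. At p20 the same comparison called 0 of 153 (0% of all bins), with 2 on chromosome 4 and 6 of all 2541 bins at an unadjusted p under 0.05. After correction for GC content the count was 0 (0% of all bins), with 0 on chromosome 4 and 3 of all 2541 bins at an unadjusted p under 0.05. Without p10 Keniry2022 replicate 1 the count before correction was 30. No share over all bins was counted for that fit. The groups hold 2 libraries each, too few to look for single outlying libraries by their distance from the rest.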

How the results depend on the processing

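The block difference at p10 Mulas2019 (-0.47) was -0.41 on summed reads, -0.0063 after GC correction and -0.0074 with the GC curve fitted without chromosome 4. At p20 Mulas2019 (-0.21) it was -0.225 in bins of 100 kb, -0.202 in 10 kb windows, -0.182 on summed reads and -0.202 with the boundary 10 Mb higher, and it reversed to 0.015 after GC correction with either curve. At p10 Keniry2022 (-0.16) it reversed to 0.0050 and 0.0053 and at p20 Keniry2022 (-0.05) to 0.0021 and 0.0023 after the same corrections. Every other setting moved a block difference by less than 1 SD of its 2 libraries. Leaving out a library gave -0.49 to -0.45, -0.22 to -0.21, -0.19 to -0.14 and -0.07 to -0.03 in the same order. With the replicate numbers crossed, the p20 Keniry2022 difference was -0.056 with an SD of 0.040.

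Of the 153 bins of chromosome 4, the share called was 63.4% at p10 Mulas2019 against p0, 9.15% at p20 Mulas2019, 5.23% at p10 Keniry2022 and 40.5% between the protocols at p10. All 4 shares fell to 0% where the change had to exceed 1.1 on the log2 scale, and after GC correction, alone or with a fixed replicate block. Without a minimum fold change the last 3 became 82.4%, 77.1% and 85.6%, and the 0% at p20 Keniry2022 against p0 and between the protocols at p20 became 17.6% and 69.9%. The 9.15% fell to 0% with voom and to 5.88% with centring on the autosomal median and with no replicate block, and rose to 15.0% with a fixed replicate block. The 5.23% fell to 0% with voom, with centring, with no filter, with no replicate block and with the p20 Keniry2022 numbers crossed, and was 6.54% with a fixed replicate block. With no replicate block the 63.4% stayed as it was and the 40.5% became 37.3%. Leaving out a library took the 63.4% to between 60.8% and 62.1%, the 9.15% to between 0% and 6.54%, the 5.23% to between 0% and 11.1%, and the 40.5% to between 19.6% and 48.4%, and left both shares of 0% at 0%. For settings other than the main fit and GC correction the share over all bins was not counted. Those shares of chromosome 4 are therefore not read as particular to it. The causes were not tested, beyond the fewer samples or the other threshold that a setting itself brings. Depth limits single 10 kb windows more than the 1 Mb bins.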
